A study of Homo sapiens with 72 samples.

Results

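NALM6 is a human precursor B cell acute lymphoblastic leukemia cell line, and the libraries described here profile trimethylation of histone H3 at lysine 4 (H3K4me3) in this line with and without bryostatin. They are 6 of the 54 libraries of the study with a peak file, 3 from untreated cells and 3 from cells kept with 1 nM bryostatin at body temperature (overnight per the labels, 24 hours per the study's text), all grown in RPMI 1640 with fetal bovine serum. The libraries were chosen by their labels for cell line, antibody and treatment, and signal was compared in replicates 2 and 3 of each group, 4 libraries in all. Replicate 1 of each group was made on another scale with short peaks and served only to record whether a region held a peak. NALM6 is 1 cell line, and no source used here says whether replicates came from separate cultures, so p-values measure the spread between these libraries, which may be technical.

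Bryostatin is a macrocyclic lactone that binds the diacylglycerol site of protein kinase C and, depending on dose and time, activates these kinases or leads to their loss. Protein kinase C signals through RAS, ERK and NF-kB to a set of early response genes that include the FOS, JUN and EGR families. H3K4me3 marks the nucleosomes around the start sites of genes that are active or poised for transcription, and in Cut&Tag an antibody to the mark directs a transposase that cuts and tags the DNA beside it. The comparison asks which start sites gained or lost the mark when the leukemia cells were treated with the drug.

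The label was checked against marker genes. All 14 genes of a B precursor list, among them CD22, PAX5, EBF1, VPREB1, IGLL1 and DNTT, had an H3K4me3 region at a start in at least 1 of the 4 libraries, whereas none of 8 T cell markers, 9 myeloid markers or 9 erythroid and stromal markers had one. Defining genes of other lineages such as CD3E, CD14, GATA1 and COL1A1 were without a peak.

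The bryostatin replicate 3 library stood apart from the others. The deposited coverage moves in steps of 1 read, which gave 18.3 M and 19.5 M mapped reads for untreated replicates 2 and 3, 17.7 M for bryostatin replicate 2 and 5.41 M for bryostatin replicate 3, where M stands for mega. That shallow library held 4389 peaks over 8.06 Mb, compared with 9711, 10679 and 10249 peaks over 24.8, 24.2 and 23.5 Mb in the other three, and no peak of it had a total signal (coverage summed over its bases) below 0.870 M. Of 20033 protein-coding genes, the share that had a start no more than 1 kb from a peak was 51.4% and 53.8% in untreated cells and 52.8% and 26.0% in bryostatin-treated cells. When the 4389 strongest peaks of each library were taken, the share was 26.5%, 26.4%, 26.4% and 26.0%. The difference in mean share of 13.2 percentage points lower with bryostatin had p = 0.667 by a two-sided exact permutation test, and 2 libraries against 2 cannot give a p below 0.333. Counts of called, gained and lost regions are given below with and without bryostatin replicate 3. For single regions, values without that library are given only in part.

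Peaks of the 4 libraries were merged into 10642 regions, and 4352 of them held a peak in every library. A region's value is its total signal, the sum of coverage in reads per kilobase scaled to library size (RPKM) over its bases, divided by the median of that library's shared regions, so that a relative signal of 1 is a typical region. Of the shared regions, 99.4% lay within 1 kb of an annotated start. Untreated and treated libraries were much alike: log2 relative signal of bryostatin and untreated replicate 2 differed with an SD of 0.121, the untreated pair differed with an SD of 0.144, and bryostatin replicate 3 differed from untreated replicate 3 with an SD of 0.215. Limma called 0 of 4352 regions at an adjusted p of 0.05 (0% of the regions tested), and 121 regions had an unadjusted p under 0.05, 51 higher and 70 lower with bryostatin. The log2 change lay between -0.26 and 0.29 for the central 95% of regions, its median SE was 0.113, and 0 regions reached an absolute change of 1. Without bryostatin replicate 3, limma called 44 of the 9677 regions shared by the other libraries, 19 higher (0.196% of the regions tested) and 25 lower (0.258%), with the single treated library assumed to vary like the untreated ones. Without bryostatin replicate 2 it called 703 of 4352, a fit in which the shallow library alone stands for the treatment.

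Where both treated libraries lay outside both untreated libraries, the groups were called separated, and the gap is the log2 distance between the nearest libraries of the groups. The groups were separated at 727 regions with bryostatin higher (16.7% of 4352) and at 589 with bryostatin lower (13.5%). At most of these the gap was small. If the 4 libraries varied independently, 33.3% of regions would be separated, counting both directions. A gap of at least 0.25 was left at 7 regions higher (0.161%) and 9 lower (0.207%), a gap of 0.5 at 2 higher and 0 lower, and no region had a gap of 1. Across the 4352 regions, the differences between bryostatin and untreated in replicate 2 and in replicate 3 had r = 0.329, and with the numbers crossed r = -0.202, a description over regions of the same libraries.

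**Figure D1:**
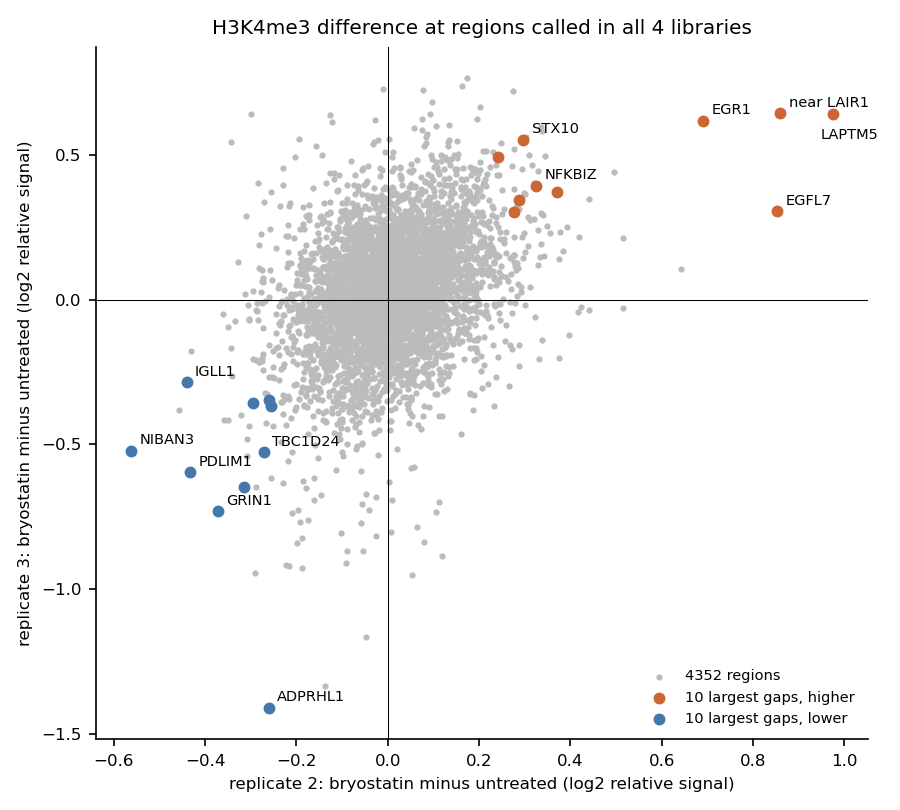
Bryostatin minus untreated in replicate 2 (x axis) and replicate 3 (y axis), as log2 relative signal, for the 4352 regions called in all 4 libraries (grey), with the 10 largest gaps in each direction in orange and blue. EGR1, LAPTM5, EGFL7 and the region near LAIR1 lie apart at the upper right, and ADPRHL1 lies far below the others in replicate 3 alone.

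The sequences upstream of 5 genes in regions that were higher or lower are shown here because they hold sites of factors known to act below protein kinase C, a choice made with the results known. Each run is the 250 bases before the RefSeq start (GRCh38.p14, read 5′ to 3′ on the gene's strand). EGR1 and EGR2 encode zinc finger factors of the early response, NFKBIZ encodes a nuclear regulator of NF-kB, MAFF encodes a small MAF factor, and IGLL1 encodes the lambda5 part of the surrogate light chain. Capitals mark a CArG box (bound by SRF) in EGR1 and EGR2, an NF-kB site in NFKBIZ and IGLL1, and a cyclic AMP response element (TGACGTCA) in MAFF. The runs lie on hg38 at chr5:138465229-138465478 (plus strand), chr10:62816367-62816616 (minus), chr3:101849264-101849513 (plus), chr22:38201744-38201993 (plus) and chr22:23580291-23580540 (minus).
EGR1: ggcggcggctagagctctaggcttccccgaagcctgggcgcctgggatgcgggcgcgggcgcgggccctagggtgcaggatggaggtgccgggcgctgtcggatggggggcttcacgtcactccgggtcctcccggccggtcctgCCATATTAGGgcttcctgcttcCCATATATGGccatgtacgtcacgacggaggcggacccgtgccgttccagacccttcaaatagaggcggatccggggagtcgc
EGR2: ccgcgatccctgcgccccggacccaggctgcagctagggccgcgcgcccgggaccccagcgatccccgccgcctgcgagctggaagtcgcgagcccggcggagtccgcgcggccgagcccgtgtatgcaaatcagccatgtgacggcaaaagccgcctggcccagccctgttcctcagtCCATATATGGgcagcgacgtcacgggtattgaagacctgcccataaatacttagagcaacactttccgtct
NFKBIZ: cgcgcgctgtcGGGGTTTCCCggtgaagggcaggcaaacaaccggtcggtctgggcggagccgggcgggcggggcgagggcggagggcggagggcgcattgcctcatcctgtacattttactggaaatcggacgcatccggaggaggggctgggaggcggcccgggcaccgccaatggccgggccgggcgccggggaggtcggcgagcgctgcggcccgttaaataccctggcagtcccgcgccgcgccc
MAFF: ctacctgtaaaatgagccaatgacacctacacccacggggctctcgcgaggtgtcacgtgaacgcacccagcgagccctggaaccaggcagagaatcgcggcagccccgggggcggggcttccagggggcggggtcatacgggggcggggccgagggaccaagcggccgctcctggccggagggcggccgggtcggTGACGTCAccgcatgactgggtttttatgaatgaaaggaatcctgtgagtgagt
IGLL1: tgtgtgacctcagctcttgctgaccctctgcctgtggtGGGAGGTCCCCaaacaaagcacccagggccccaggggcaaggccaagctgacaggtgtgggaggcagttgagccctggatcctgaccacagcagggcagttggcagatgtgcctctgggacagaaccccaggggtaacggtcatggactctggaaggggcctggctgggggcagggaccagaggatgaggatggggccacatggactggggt

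Both strands of these windows were searched for the CArG box, the NF-kB site, TGACGTCA, the AP-1 site TGANTCA and the EGR site GCGTGGGCG. Of all 35116 promoters in the table, 1.16% held a CArG box, 6.88% an NF-kB site, 1.65% TGACGTCA, 6.57% TGANTCA and 0.720% GCGTGGGCG. Of 15 promoters in the 10 separated regions with the largest gap upwards, 1 held a CArG box (EGR1), 4 an NF-kB site (NFKBIZ, MBOAT7, TSEN34 and LNCEGFL7OS), 1 TGACGTCA (COLGALT1) and 0 either of the others, whereas of 15 promoters in the 10 regions with the largest gap downwards 1 held an NF-kB site (IGLL1). MBOAT7 and TSEN34 share 1 region and start near each other. Among the 6825 promoters in regions called in all 4 libraries, 0.894% held a CArG box and 8.88% an NF-kB site. TGACGTCA was found in 2.74% of them, TGANTCA in 2.71% and GCGTGGGCG in 1.30%. A match is a description of letters in this window, and no test of these shares was made.

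The region of EGR1, the best known target of ERK signalling through SRF, was among the clearest. Its relative signal was 0.738 and 0.682 in untreated replicates 2 and 3 and 1.19 and 1.05 with bryostatin. Both treated libraries lay above both untreated ones, 1.57-fold on average (log2 change 0.66, SE 0.11, adjusted p = 0.909 by limma). Peaks covered 2980 and 2990 bp of the region at chr5:138463411-138468270 in untreated cells, 4740 bp in bryostatin replicate 2 and 2770 bp in the shallow library. Signal per called base was 503 and 435 RPKM in untreated cells, 495 in bryostatin replicate 2 and 556 in bryostatin replicate 3. The called length thus rose in bryostatin replicate 2 only. Relative to the median region, signal per called base changed by -0.02 and maximum signal by 0.25 on the log2 scale. Untreated replicate 1 had no peak there and bryostatin replicate 1 had one. Without bryostatin replicate 3, the EGR1 region rose by a log2 change of 0.75 (SE 0.13, adjusted p = 1.02e-05 by limma).

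LAPTM5, a lysosomal membrane protein of blood cells that takes part in the turnover of antigen receptors, had a relative signal of 0.341 and 0.475 in untreated cells and 0.671 and 0.742 with bryostatin. The change was 0.81 on the log2 scale (SE 0.19, adjusted p = 0.936 by limma), and the signal per called base moved in the same direction, by 0.88. Without bryostatin replicate 3 the LAPTM5 region rose by 0.74 (adjusted p = 0.000858 by limma). The widest gap of all, 0.55, lay at the start of an unnamed transcript (ENSG00000288742) 4447 bp from the nearest start of LAIR1, which encodes an inhibitory collagen receptor of leukocytes. Its relative signal was 0.335 and 0.416 in untreated cells and 0.608 and 0.651 with bryostatin.

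EGFL7, a secreted vascular factor whose gene hosts a microRNA, had values of 0.925 and 0.955 without the drug and 1.67 and 1.18 with it (log2 change 0.58, SE 0.15). The remaining regions of this set had smaller gaps, from 0.24 to 0.30. The region shared by IER2, an early response gene, and STX10 went from 3.49 and 3.41 to 4.28 and 5.01, the highest level of the set. NFKBIZ went from 0.867 and 0.809 to 1.09 and 1.06. DUSP6, the phosphatase that shuts off ERK and is induced by it, went from 2.21 and 2.08 to 2.61 and 2.93 (log2 change 0.37, SE 0.10). VAMP5, COLGALT1 and the MBOAT7 and TSEN34 region made up the rest, with log2 changes of 0.29, 0.37 and 0.32. For none of these 10 regions did limma give an adjusted p below 0.909, and peaks of bryostatin replicate 1 were found in 9 of 10 and of untreated replicate 1 in 8 of 10, compared with 95.6% and 88.6% of all shared regions.

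Among the regions with bryostatin lower, 2 belonged to genes of the B lineage. IGLL1, whose product pairs with VPREB1 in the pre-B cell receptor, had a relative signal of 3.57 and 3.54 in untreated cells and 2.63 and 2.90 with bryostatin (log2 change -0.36, SE 0.10). Its maximum signal changed by -0.00 over the 4 libraries and by -0.19 without bryostatin replicate 3. Called length at IGLL1 was 10120 and 10150 bp in untreated cells, 9000 bp in bryostatin replicate 2 and 2860 bp in bryostatin replicate 3. NIBAN3, a gene expressed in B cells, went from 0.893 and 1.03 to 0.605 and 0.718. Limma gave an adjusted p of 0.936 for both. Without bryostatin replicate 3, NIBAN3 fell by 0.66 on the log2 scale (adjusted p = 0.000303 by limma), and IGLL1 changed by -0.43 (adjusted p = 0.0778 by limma).

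The widest gap downwards, 0.37, was that of the region of GRIN1, LRRC26 and TMEM210 on chromosome 9. Its relative signal was 3.22 and 3.62 in untreated cells and 2.49 and 2.18 with bryostatin. PDLIM1, a cytoskeletal PDZ and LIM domain protein, went from 1.03 and 0.965 to 0.762 and 0.638. ADPRHL1 had the largest change of any shared region, -0.84 (SE 0.26), but this rested on 1 library: its values were 1.54 and 1.69 in untreated cells, 1.28 in bryostatin replicate 2 and 0.634 in bryostatin replicate 3. The other members were TBC1D24 with NTN3, LRP5 (a co-receptor for Wnt ligands), ATP2A3 (a calcium pump of the endoplasmic reticulum), RIPOR1 and PALD1, with log2 changes from -0.48 to -0.30. All 10 had peaks in both replicate 1 libraries. Over the 4 libraries, the direction of 5 of the 20 regions turned when signal was averaged per called base. These were EGR1 (-0.02), MBOAT7 and TSEN34 (-0.05), NIBAN3 (0.25), IGLL1 (0.24) and TBC1D24 with NTN3 (0.08). Without bryostatin replicate 3 their changes per called base were 0.01, 0.13, -0.43, -0.33 and -0.29. EGR1 was thus nearly unchanged on this measure, against 0.75 by total signal, and the others had the direction of total signal. Called length in bryostatin replicate 3 had a median of 1710 bp over shared regions, compared with 2620 to 2850 bp in the other libraries.

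Regions were also compared by presence. No region of 10642 was called in both treated libraries and neither untreated one (0%), and 9 were called in both untreated libraries and neither treated one (0.0846%). Because bryostatin replicate 3 called no region of low signal, a loss rests in practice on bryostatin replicate 2. Without bryostatin replicate 3 there were 19 gained regions (0.179% of 10642) and 9 lost. Those 19 had a peak in bryostatin replicate 2 alone. A peak in untreated replicate 3 alone was found at 443 regions (4.16%), and in untreated replicate 2 alone at 5. The strongest lost region was that of IL7R, the receptor chain for interleukin 7 on which B precursors depend, with a total signal of 0.506 and 0.339 M in untreated replicates 2 and 3 and no peak with bryostatin. QPRT (0.204 and 0.305 M), GSE1 (0.305 and 0.184 M) and the region of TMEM205, RAB3D and CCDC159 (0.186 and 0.172 M) were the other lost regions at the start of a protein-coding gene, and 5 of the 9 lay elsewhere. The lowest totals called were 0.183 M in untreated replicate 2, 0.0909 M in untreated replicate 3 and 0.129 M in bryostatin replicate 2. For H3K4me2, the dimethylated form of the mark, IL7R and the region of TMEM205, RAB3D and CCDC159 had peaks in bryostatin replicates 2 and 3 and in neither untreated one, the opposite pattern. Of the 9 lost regions, 5 had H3K4me2 peaks in all 4 libraries, 4 with a lower and 1 with a higher mean with bryostatin. None of the 9 had a peak in replicate 1 of either group. Of all merged regions, 19.3% had a peak in bryostatin replicate 1 only and 1.62% in untreated replicate 1 only, and the replicate 1 libraries held 9925 and 6100 peaks.

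In the 3 deep libraries, without bryostatin replicate 3, regions of lower signal could be followed, and here relative signal is given against the median of these 9677 regions. Bryostatin replicate 2 lay above both untreated libraries at 2882 regions (29.8% of 9677) and below both at 2714 (28.0%). A gap of at least 0.5 was left at 26 regions higher (0.269%) and 26 lower (0.269%), and a gap of 1 at 2 in each direction. This limit was chosen after the data were seen, and the treated group is 1 library, so these sets are a description.

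Of the 26 higher regions, 6 belonged to genes of an AP-1 and early response list or an ERK feedback list (EGR1, EGR2, FOS, MAFF, ETV5 and PHLDA1), which is 23.1% compared with 0.372% of all 9677 regions (36 regions), and 0 of the 26 lower regions did. The lists were chosen with results of these data known. ETV5, an ETS factor induced by ERK, had a relative signal of 0.320 and 0.317 in untreated cells and 0.720 with bryostatin (log2 change 1.18, SE 0.20, adjusted p = 6.56e-06 by limma). MAFF had 0.357 and 0.455 without and 0.757 with the drug (log2 change 0.91, SE 0.19, adjusted p = 0.000699 by limma). EGR2 had 0.202 and 0.175 and then 0.348 (adjusted p = 0.0369 by limma), with called length going from 1480 and 1460 bp to 3400 bp and signal per called base changing by -0.39. The choice of these regions required the treated library to lie above both untreated ones. The untreated libraries nearly coincided at ETV5 and lay further apart at MAFF and EGR2.

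FOS, the classical partner of JUN in AP-1, had 0.390 and 0.375 in untreated cells and 0.636 with bryostatin (log2 change 0.73, SE 0.19, adjusted p = 0.0351 by limma). PHLDA1, a pleckstrin-homology-like gene induced by ERK signalling, rose by 0.78 (SE 0.17, adjusted p = 0.00206 by limma). HBEGF, a growth factor of the EGF family, rose by 0.83 (adjusted p = 0.0159 by limma). The zyxin gene ZYX, the integrin gene ITGA6, the adaptor gene LCP2 and the growth factor gene PDGFA rose by 0.85, 0.88, 0.84 and 0.69. PDGFA also had a peak in bryostatin replicate 3, and over the 4 libraries its relative signal was 0.652 and 0.613 in untreated cells and 1.02 and 0.660 with bryostatin, a change of 0.37 (SE 0.18, adjusted p = 0.936 by limma) with a gap of 0.02. PRKD2, a protein kinase D that acts directly below protein kinase C, rose by 0.68 (SE 0.14, adjusted p = 0.000699 by limma). The largest change, 1.50, lay at a KMT2E start listed by GENCODE, where relative signal was 0.382 and 0.299 in untreated cells and 0.956 with bryostatin. At 4 of 32 promoters in the 26 regions a CArG box was found (EGR1, EGR2, PDGFA and PDGFA-DT, the latter 2 in 1 region), beside 1.16% of all promoters. An NF-kB site was found at 4 of the 32 (ZYX, FAM131B-AS2, LNCEGFL7OS and PLCXD1). That is 12.5%, compared with 6.88% of all promoters and 8.88% of those in regions called in all 4 libraries. TGACGTCA was found at 1 and the AP-1 and EGR sites at 0. Of 13 promoters in the lower regions, 1 held an AP-1 site, 1 an NF-kB site and 0 a CArG box.

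Of the 26 higher regions, 16 had a peak in bryostatin replicate 1, 6 in untreated replicate 1, 10 in bryostatin replicate 1 only and 0 in untreated replicate 1 only. These shares were 61.5%, 23.1%, 38.5% and 0%, compared with 76.4%, 57.6%, 20.6% and 1.73% of the 9677 regions. Most of the 26 had no peak in bryostatin replicate 3. Among the 5325 regions called in the 3 deep libraries only, the same shares were 60.8%, 32.2%, 31.4% and 2.76%. The genes with a peak in the treated replicate 1 only included KMT2E, ETV5, EGR1, EGR2, LCP2 and HBEGF, whereas FOS and PHLDA1 had no peak in either. By signal per called base, 24 of the 26 were higher, compared with 4687 of all 9677. Their median change was 0.52, compared with 0.79 by total signal. This measure divides the total signal that chose these regions by called length, so it is no separate evidence. Limma called 0 of 9677 regions on signal per called base, and on maximum signal it called 2, both lower.

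In the lower set the genes were more mixed, and 18 of 26 regions lay at an annotated start compared with 24 of 26 in the higher set and 97.4% of all. PLD4, an exonuclease of B cells and dendritic cells, had a relative signal of 0.822 and 1.27 in untreated cells and 0.463 with bryostatin (log2 change -1.14, SE 0.16, adjusted p = 6.38e-09 by limma). TFDP2, a partner of E2F factors, fell by 1.16 (adjusted p = 0.000889 by limma), with called length going from 1160 and 1110 bp to 350 bp and signal per called base changing by 0.46. GADD45B, a stress response gene, fell by 0.71 (0.13 per called base), the exchange factor genes ARHGEF18 and IQSEC1 fell by 0.91 and 1.01, and MAPK8IP3, a scaffold of JNK signalling, fell by 1.15. The metallothionein region of MT1G and MT1H had 1.15 and 1.28 without the drug and 0.754 with it (adjusted p = 0.000956 by limma). By signal per called base, 5 of the 26 were higher, with a median change of -0.55. Here too the measure derives from the total signal that chose the regions. In replicate 1, 3 of the 26 had a peak in treated and 3 in untreated cells. ARHGEF18 and GADD45B had one in untreated replicate 1 only.

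Gene lists chosen for protein kinase C signalling and for B cells were read in the 3 deep libraries, where more of their members had a region. Over all 9429 regions at a start, 29.8% were above and 27.9% below both untreated libraries, and the median log2 change was 0.00. Of 27 genes of AP-1 and the early response, 23 had a region; 15 lay above and 6 below both untreated libraries, the median change was 0.09 (-0.01 by signal per called base), and limma called 4, all higher (FOS, MAFF, EGR1 and EGR2). JUN, JUNB and FOSB had changes of 0.18, 0.11 and 0.26, and BATF3 had -0.32, none of them called. Of 17 ERK feedback genes, 13 had a region, 6 lay above and 2 below, the median was 0.05, and ETV5 and PHLDA1 were called higher. SPRY2, a feedback inhibitor of the RAS pathway, had a change of 0.05 here and of -0.46 (SE 0.26) over the 4 libraries, and the AP-1 gene FOSL2 had -0.15 and -0.57 (SE 0.22), both lower mainly in the shallow library.

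Of 22 NF-kB subunits and targets, 15 had a region, 8 above and 0 below both untreated libraries, with a median of 0.05 and 0 called. NFKBIZ (0.38), RELB (0.38) and BCL3 (0.42) had the largest changes, and NFKBIA, the inhibitor that NF-kB itself induces, had 0.05. In the protein kinase C and diacylglycerol list 15 of 25 genes had a region, 5 above and 5 below, and PRKD2 alone was called. Regions of the kinases themselves changed little: PRKCA had 0.22, PRKCB 0.10 and PRKCD -0.14.

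Of 15 pre-B genes, 13 had a region in some library and 12 could be followed, 0 above and 8 below both untreated libraries, and the median change was -0.11 with 0 called. IGLL1 (-0.43), VPREB3 (-0.26), MME (-0.24), which encodes the CD10 antigen, and CD99 (-0.23) were the lowest, RAG1 had -0.04 and RAG2 0.15. Over the 4 libraries, 3 of 6 shared regions of this list were separated with bryostatin lower and 0 higher (13.5% and 16.7% of all shared regions), with a median of -0.21. VPREB1, the partner of IGLL1, had a relative signal of 1.78 and 1.81 in untreated cells and 1.58 and 2.27 with bryostatin, so its groups overlapped. B lineage transcription factors had a median of -0.02 over 24 regions, 5 above and 6 below; PAX5 had 0.11, EBF1 -0.05 and IKZF3 -0.47.

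**Figure D2:**
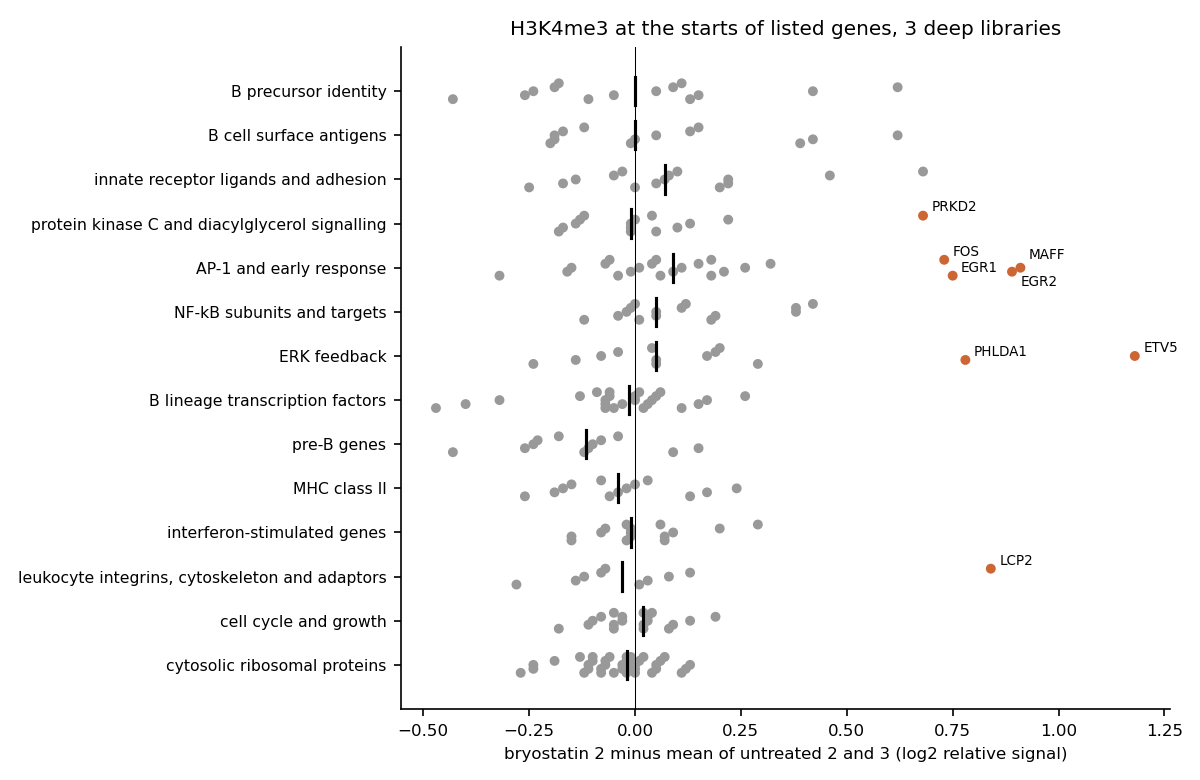
Log2 change of H3K4me3 (bryostatin replicate 2 minus the mean of untreated replicates 2 and 3) at the starts of listed genes, 1 point per region, black bars the median of each list; orange points and names mark the regions that limma called without bryostatin replicate 3. The called genes are EGR1, EGR2, FOS, MAFF, ETV5, PHLDA1, PRKD2 and LCP2, and list medians lie between -0.11 and 0.09.

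Of 26 B cell surface antigens, 14 had a region and 13 were followed, 6 above and 6 below, with a median of -0.00. CD22, a target of antibody and cell therapies whose level on the cell bryostatin has been used to raise, had a relative signal of 0.315 and 0.418 in untreated cells and 0.559 with bryostatin, and no peak in the shallow library. Its change of 0.62 (SE 0.20) was not called (adjusted p = 0.304 by limma), and a CD22 peak was found in bryostatin replicate 1 and not in untreated replicate 1. CD79A, a signalling chain of the B cell receptor, had a change of 0.42 and CD81 of -0.20 in the deep libraries.

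Of 28 innate receptor ligands and adhesion genes, 17 had a region, and of the 15 followed 7 lay above and 4 below with a median of 0.07, or -0.11 by signal per called base. Over the 4 libraries 5 of the 6 shared regions were separated with bryostatin higher and 1 lower (16.7% and 13.5% of all shared regions), and 0 were called. The higher ones included HLA-E (0.26), HLA-C (0.24), HLA-B (0.15) and BAG6 (0.09), each with a gap of 0.21 or less. HLA-B and HLA-C are similar in sequence, so reads may be shared between them. MICB, a stress ligand of NKG2D, was the lower one (-0.18). In the deep libraries CLEC2B, a lectin ligand of natural killer cells, had 0.68 (SE 0.25, adjusted p = 0.832 by limma) and NECTIN2 had 0.46, neither of them called. The adhesion gene ICAM1 had 0.173 and 0.225 in untreated cells and 0.226 with bryostatin replicate 2, a change of 0.20 with an SE of 0.24, and ICAM2 had peaks in untreated replicate 3 and bryostatin replicate 2 only. The interferon-inducible gene IFI16 had 0.478 and 0.449 without and 0.461 with the drug, groups that overlapped.

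Of 38 genes of cytosolic ribosomal proteins, all had a region, 5 above and 12 below both untreated libraries, with a median of -0.02 and a range from -0.27 to 0.13. Cell cycle genes had a median of 0.02 (3 of 19 above, 4 below), MHC class II genes -0.04 (3 of 13 above, 5 below) and interferon-stimulated genes -0.01 (4 of 15 above, 5 below), with 0 called in each. Integrins, cytoskeleton genes and adaptors had a median of -0.03 over 10 regions, 3 above and 4 below, and LCP2 was called.

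The same regions were then read in measurements that played no part in choosing them. H3K4me2, the dimethylated form that extends from starts to enhancers, was measured in separate NALM6 libraries. Of the 23 higher regions of the deep libraries with H3K4me2 peaks in all 4 libraries of replicates 2 and 3, 21 had a higher mean with bryostatin and 13 were separated upwards (56.5%), compared with 14.5% of all 7167 measured regions, and 0 were separated downwards, compared with 31.4%. Of 21 lower regions, 15 had a lower mean, compared with 4373 of all 7167. Of these 21, 11 were separated downwards (52.4%, compared with 31.4%) and 3 upwards (14.3%, compared with 14.5%). The H3K4me2 libraries covered 34.0 and 26.1 Mb in untreated and 43.5 and 44.4 Mb in treated cells, and the part of this difference in the result was not tested. By maximum signal, a measure of height chosen after the data were seen, 13 of 23 higher regions had a higher mean, compared with 3402 of all 7167, and 4 were separated upwards (17.4%), compared with 17.0% of all. Of the lower regions, 20 of 21 had a lower mean by maximum signal, compared with 3765 of 7167, and 9 were separated downwards (42.9%), compared with 20.9%.

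At the EGR1 region H3K4me2 had a relative signal of 1.64 and 1.56 in untreated cells and 2.25 and 2.19 with bryostatin, with called length going from 3590 and 3050 bp to 5730 and 7240 bp. At the start of LAIR1 it went from 0.658 and 0.648 to 3.90 and 4.09, as the called length of the overlapping peaks went from 3190 and 2000 bp to 18470 and 18760 bp, and the same peaks overlapped the neighbouring region described above. The height of these H3K4me2 peaks changed little, by 0.15 on the log2 scale at LAIR1 and by -0.06 at EGR1. At PLD4 H3K4me2 went from 3.91 and 4.90 to 2.95 and 3.42, and at MAPK8IP3 from 2.18 and 2.81 to 1.49 and 1.61. Of the 10 regions with the widest gap upwards over 4 libraries, 5 were separated upwards in H3K4me2. Another 3 were separated downwards: STX10 with IER2 (-0.35), NFKBIZ (-0.18) and MBOAT7 with TSEN34 (-0.12). Of the 10 widest gaps downwards, 6 were separated downwards and PDLIM1 (0.88) upwards. Of all 686 measured regions separated upwards in H3K4me3, 13.0% were separated upwards in H3K4me2 and 31.9% downwards (17.1% and 26.3% of all 4090). H3K27me3, the repressive mark of Polycomb domains, had a peak in at least 1 library at 10 of the 26 higher regions (38.5%) and 4 of the 26 lower ones (15.4%), compared with 16.8% of all; FOS, PDGFA and EGFL7 had one in every library and EGR2 in none.

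H3K4me3 in the other lines gave a second reading. REH is another precursor B cell leukemia line and Raji is a Burkitt lymphoma line, and both were treated with bryostatin in the same way, with 3 libraries a group and controls of their own. Of the 26 higher NALM6 regions, 11 were measured in REH and 10 of them had a positive change (49.5% of all regions measured in both lines), with a median of 0.23. In Raji 12 of 14 had a positive change (47.4% of all), with a median of 0.51. Limma called 3 of the 11 higher in REH, where 0.815% of its 7238 regions were called higher, and 3 of the 14 higher in Raji, where 0.155% of 9040 were. In REH these were FOS (0.67, SE 0.07, adjusted p = 0.000570), EGR1 (0.33, SE 0.07, adjusted p = 0.0312) and ZYX (0.32, SE 0.07, adjusted p = 0.0338). In Raji they were EGR2 (1.82, SE 0.24, adjusted p = 0.0279), FOS (1.51, SE 0.22, adjusted p = 0.0288) and PHLDA1 (1.31, SE 0.17, adjusted p = 0.0279). EGFL7 had the opposite sign in REH (-0.39, adjusted p = 0.184). FOS was thus called by limma in all 3 lines, in NALM6 only without bryostatin replicate 3.

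The lower regions were seldom measured in the other lines. Of 26, 3 were measured in REH, 2 of them with a negative change and 1 called lower, and 10 in Raji, 8 of them with a negative change and 0 called. PLD4 had a change of -1.17 in Raji (SE 0.29, adjusted p = 0.413 by limma). Of the 10 regions with the widest gap upwards over the 4 NALM6 libraries, 9 were measured in REH, 5 with a positive and 4 with a negative change, and EGR1 was called. Of the 10 with the widest gap downwards, 7 were measured, 4 with a negative change and LRP5 (0.09), RIPOR1 (0.10) and PALD1 (0.24) with a positive one. Limma called 3 of these 7 lower, compared with 0.857% of the 7238 REH regions. IGLL1 fell in REH by 0.73 (adjusted p = 0.00313 by limma), ATP2A3 by 0.47 (adjusted p = 0.00285) and TBC1D24 with NTN3 by 0.51 (adjusted p = 0.0394). CD22, not called in NALM6, rose in REH by 0.62 (adjusted p = 0.00479 by limma), and VPREB3, with -0.15 over the 4 NALM6 libraries, fell in REH by 0.84 (adjusted p = 0.000183).

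**Figure D3:**
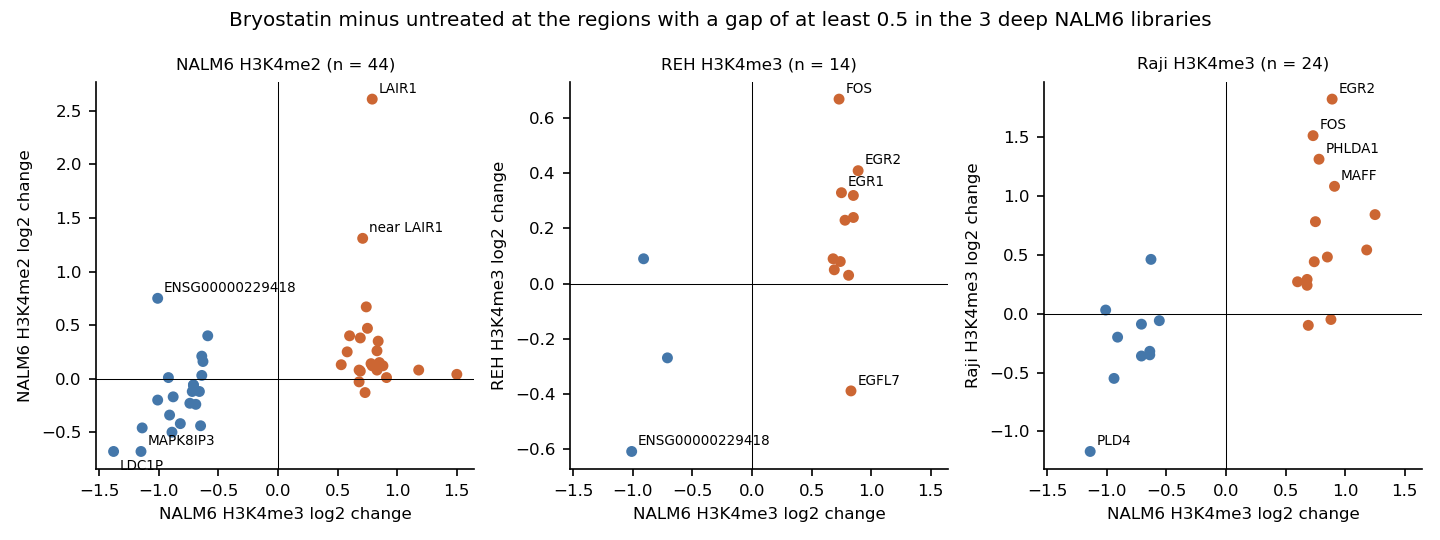
Log2 change with bryostatin of NALM6 H3K4me2, REH H3K4me3 and Raji H3K4me3 (y axes) against the NALM6 H3K4me3 change in the 3 deep libraries (x axis) at the regions with a gap of at least 0.5, 1 point per region, higher in orange and lower in blue. Of the higher regions 21 of 23, 10 of 11 and 12 of 14 lie above 0.

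The difference between the lines was tested directly as an interaction. Of 4200 regions called in all 4 NALM6 and all 6 REH libraries, limma called 4 (0.0952%), and of 4065 shared with Raji it called 0 (0%), with 186 at an unadjusted p under 0.05. At RUBCNL, a regulator of autophagy, NALM6 had a change of -0.13 and REH of 0.66, a difference of -0.79 (SE 0.11, adjusted p = 0.0175 by limma). Relative signal there was 1.42 and 1.40 in untreated and 1.27 and 1.32 in treated NALM6, and 0.479 to 0.516 in untreated and 0.741 to 0.820 in treated REH. At the region of SLC9A5 and FHOD1 the changes were 0.09 and 0.94 (difference -0.85, adjusted p = 0.0252 by limma). SEPTIN9, a septin of the cytoskeleton, had 0.31 in NALM6 and -0.73 in REH (adjusted p = 0.0252 by limma), and RASD1, a small GTPase, had 0.17 and -0.48 (adjusted p = 0.0471 by limma). Without bryostatin replicate 3 of NALM6, 2 regions were called, RUBCNL (adjusted p = 0.0480 by limma) and EGFL7 (difference 1.21, adjusted p = 0.0480 by limma).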

How the data were processed

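NALM6 H3K4me3 was measured by Cut&Tag in 3 untreated and 3 bryostatin-treated libraries. Per the labels and the study's methods, the authors demultiplexed, trimmed and aligned paired reads to hg38 (bcl2fastq, Trim Galore, Bowtie2; versions not given in the sources used here), scaled coverage as RPKM and called stringent peaks per library with SEACR. The deposited values are the total and the maximum coverage signal of each peak. The height of 1 read in a 10 bp bin gave the depth of replicates 2 and 3 only. IgG libraries were not used here.

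Peaks of replicates 2 and 3 on autosomes, X and Y were merged where they shared 1 bp. Log2 total signal, centred on the median of regions called in every library, was compared with limma 3.58.1 (R 4.3.3, eBayes with trend, Benjamini-Hochberg 0.05), and the script was tested on simulated data. Starts are from GENCODE release 44 (20033 protein-coding genes, 1 kb). The same fit gave REH, Raji and the interactions. The named regions came from the 10 widest gaps in each direction, the 8 strongest lost regions, up to 4 genes of each list with the widest gap, and CD22, ICAM1, ICAM2 and IFI16; the deep-library regions and other listed genes were chosen after their values were seen. Some members of the lists are not reported here. Members, lists and tests were chosen with earlier results of these data known. Alternatives covered signal measure, scaling, region merging, equal peak numbers, the replicate block and leaving out each library. Python ran numpy 2.4.6, pandas 2.3.3, scipy 1.17.1 and matplotlib 3.10.9.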

Additional observations from a re-analysis of the deposited data

Results flagged for a closer look

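The response to bryostatin differed between NALM6 and REH at 4 regions by the interaction test of limma. The NALM6 change minus the REH change was -0.79 at RUBCNL, -0.85 at the region of SLC9A5 and FHOD1, 1.03 at SEPTIN9 and 0.65 at RASD1, on the log2 scale. At SLC9A5 and FHOD1 and at RUBCNL the signal rose in all 3 treated REH libraries relative to all 3 untreated ones. At SEPTIN9 and RASD1 it fell in all 3. None of these regions was called in NALM6, but there limma called 0 of 4352 regions over the 4 libraries. On signal per called base the differences were -0.43, -0.86, 0.27 and 0.59, with an adjusted p of 0.737 or more by limma. Without bryostatin replicate 3 of NALM6, the differences by total signal were -0.81, -0.83, 0.84 and 0.57.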

How the results depend on the processing

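Over the 4 libraries, limma called 0 regions under maximum signal, signal per called base, no centring, quantile and cyclic loess normalization, the upper 0.5 of regions, no trend, 3 libraries against 3 (also with the block, added after seeing the data), equal peak numbers and merging within 1 kb, with 7 to 142 regions below 0.05 before adjustment. A block for the replicate number gave 114 called regions, 50 higher and 64 lower, 11 of them also called without bryostatin replicate 3. The samples share only a number: deviations of same-numbered libraries correlated with r = 0.461 over regions, 2 pairs do not settle the pairing, and the cause was not tested. Leaving out 1 library gave 0 to 703 called regions, 0 to 4 regions with a gap of 1, 0 to 19 gained and 9 to 5334 lost; 452 were lost without untreated replicate 2, 14 without untreated replicate 3 and 5334 without bryostatin replicate 2, where the shallow library alone defines the treated group. Without bryostatin replicate 3, limma called 2 regions on maximum signal and 0 on signal per called base, and a gap of 0.5 was left at 52 regions, or at 2 over all 4 libraries. With equal peak numbers 35 regions were gained and 34 lost, with the upper 0.5 of peaks 58 were lost, and with replicate 1 required 0 were lost. The library totals moved from -13.2 to -13.3 percentage points with a 2 kb window and to -0.250 with equal peak numbers, within the spread of the libraries. The NALM6 and REH interaction called 0 regions on signal per called base and 2 without bryostatin replicate 3. The count of higher H3K4me2 went from 21 to 13 with maximum signal. Without centring, the median of all regions moved by -0.19, and changes are relative to it. Of the 20 named regions, the direction turned for EGR1 (-0.02), MBOAT7/TSEN34 (-0.05), NIBAN3 (0.25), IGLL1 (0.24) and TBC1D24/NTN3 (0.08) on signal per called base, and for VAMP5 (-0.05) and LRP5 (0.02) with replicate 1, with or without the block; 291 other comparisons kept direction and call and 41 kept direction and gained a call. Depth limits the comparison: bryostatin replicate 3 had 5.41 M reads and its 4389 peaks leave 5325 regions of the other libraries with a single treated library.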
